A study of Mus musculus with 6 samples.

Results

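The accessible chromatin of 3 cultured helper T cell subsets was examined at 10 genes that define the T cell surface and its helper or killer identity. They were Cd3e, Cd3d, Cd3g and Cd247, the coreceptor genes Cd4, Cd8a and Cd8b1, the surface genes Cd5 and Cd6, and Zbtb7b. All peaks that touched a gene body or the 20 kb on either side of it were taken, with gene positions from GENCODE M21 on the mm10 build of the mouse genome. The 10 genes lay in 7 loci and held 79 of the 236017 regions that the 6 peak lists formed when overlapping or touching peaks were joined.

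ATAC-seq, which uses a transposase (Tn5) to cut and tag open DNA, was performed on wild-type C57BL/6 mouse T cells to ask how accessibility differs between subsets that make different cytokines. Naive CD4+CD62L+ cells were activated through CD3 and CD28 and cultured toward Th9, Th2 or Th17 cells. Th2 cultures received IL-4 and IL-2 with an antibody to IFN-γ. Th9 cultures received the same with TGF-β1 added. Th17 cultures received IL-6, TGF-β1, IL-23 and IL-1β, with antibodies to IFN-γ, IL-4 and IL-2. The 6 libraries, 2 of each subset with the replicate numbers 1 and 3, each had a peak list. Whether those libraries came from separate mice is not stated in the labels, so the p-values below measure only a spread between libraries that may be technical. All cells started as CD4+ T cells and shared one activation, and no naive, CD8+ or undifferentiated sample was analysed here.

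The T cell receptor recognises antigen through its variable chains, which have no signalling part of their own. The CD3 chains (from Cd3e, Cd3d and Cd3g) and the zeta chain (from Cd247) carry the signal into the cell. CD4 and CD8 bind MHC class II and class I and bring the kinase Lck to the receptor, while CD5 and CD6 dampen its signal. The transcription factor ThPOK, made from Zbtb7b, holds cells in the CD4 lineage. Cd4 itself is known to be controlled by an enhancer upstream of the gene and by a silencer in its first intron, which binds RUNX proteins in cells that must not make CD4.

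The lists held 100317 to 142213 peaks. The lists hold no read counts, and the depth was recovered as the genome-wide background coverage, which was 5.65 fragments in Th9 replicate 1 and 11.2 to 17.7 in the other 5 libraries. The lowest fold enrichment called was 2.11 in Th9 replicate 1 and 1.71 to 1.83 in the others, so a weak peak that is missing only from that library may lie under its limit. Folds of lists of different depth are not comparable, and each peak was therefore given its percentile of fold enrichment within its own list, from 0 for the weakest to 100 for the strongest. In these broad peaks the fold is a mean over the whole peak, so a wide peak with weak shoulders ranks lower than its summit would. With 2 Th17 libraries against 4 others, the two-sided exact permutation test has 15 arrangements and a smallest p of 0.0667, so no comparison could reach 0.05.

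The cell type of the libraries was first checked at marker genes by their promoter peaks. Promoters were taken from 1000 bp before to 100 bp after each annotated start. No list was of Th9, Th2 or Th17 markers, so the subset labels were not checked. The T cell markers Cd3e, Cd3d, Cd3g, Cd247, Cd5 and Cd6 are also among the genes examined here. So are the markers Cd4, Zbtb7b, Cd8a and Cd8b1, and the check is not independent of the results at these genes. A peak in all 6 libraries was found at 11 of 11 T cell markers, against 58.7% of all protein-coding genes. None of 4 NK cell markers and none of 6 myeloid markers had one, and Csf1r, Lyz2, Itgam, Mpo and Elane had no promoter peak in any library. The remaining myeloid marker, Cd14, had a peak in 3 libraries, at percentiles of 54.5 to 70.1. Of 6 B cell markers only Ebf1 had one in all 6 libraries, while Cd79a, Ms4a1 and Pax5 had none in any. Of 2 CD4 T cell markers Zbtb7b had one in all 6 and Cd4 in 4 libraries. Of 5 CD8 T cell markers Cd8b1 and Eomes had one in all 6, Crtam and Gzmk in 1 library each, and Cd8a in none. In such bulk material fewer cells of a type and less accessible chromatin per cell cannot be told apart.

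Most of the regions around the 10 genes were shared by the subsets. All 6 libraries called 44 of the 79 regions (55.7%), against 26.8% of the 140119 regions within 20 kb of any protein-coding gene. This order depended on weak peaks. With only peaks of −log10 q of at least 5 the shares were 33.9% and 36.6%, and from a fold of 4 up they were 19.0% and 40.3%. Among regions called in all 6, the median of the mean percentile was 72.1 around the 10 genes and 77.5 near genes in general. The loci therefore held many peaks that were present in all libraries and of middling strength. Cd247 held 24 regions (16 in all 6 libraries), Cd5 13 (6), Cd6 12 (7), Cd4 12 (6), the Cd3 cluster 8 (4), the Cd8 pair 5 (2) and Zbtb7b 5 (3).

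Few regions belonged to 1 subset. Only 1 region was called in both Th2 libraries and in no other, 1.27% of the 79 against a background of 3.1%. It covered an exon of Cd247 at chr1:165875719-165876196, with percentiles of 21.3 and 15.9. No region was called in both Th9 libraries alone (background 1.53%), in both Th17 libraries alone (1.7%), in Th2 and Th17 only (1.42%) or in Th9 and Th17 only (0.312%). A further 3 regions (3.8%, background 2.45%) were called in both Th9 and both Th2 libraries and in no Th17 library. They lay upstream of Cd4, upstream of Cd3e and in the last part of Cd5. The other 31 regions (39.2%) were called in some other set of libraries, and 11 of these (13.9% of the 79) in a single library. No background share was taken for these counts, so they cannot be read as high or low.

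Promoters were compared next. A promoter peak in all 6 libraries was found at 8 of the 10 genes, against 58.7% of 21951 protein-coding genes, and Cd4 and Cd8a were the exceptions. This count rested in part on weak peaks, since it was 4 genes (Cd3e, Cd3g, Cd247 and Zbtb7b) with a −log10 q of at least 5 and no gene with a fold of at least 4. The mean promoter percentile over 6 libraries was 85.2 for Cd247, 83.2 for Zbtb7b, 81.4 for Cd3e, 73.0 for Cd3g, 72.1 for Cd5, 69.0 for Cd3d, 64.8 for Cd8b1 and 64.2 for Cd6. All 8 were below the median of 93.1 over genes with a promoter peak in all 6 libraries, and ranked from 7.33% (Cd6) to 24.7% (Cd247) of the way up that list. In the Th9 and Th2 libraries Cd3g and Cd3d shared a single promoter peak and so have the same values. The ranges of neighbours in this order overlapped. Cd3e ranged from 69.3 to 92.0 over the 6 libraries and Cd3g from 66.4 to 80.0, whereas Cd247 stayed between 80.1 and 88.9.

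**Figure D1:**
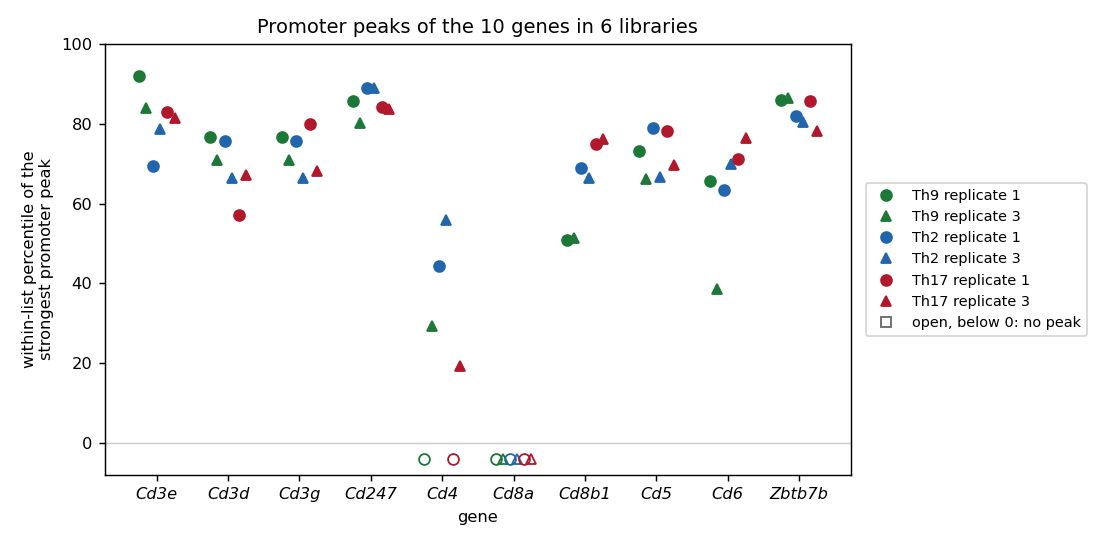
Within-list percentile of the strongest promoter peak (vertical axis) of each of the 10 genes in the 6 libraries, coloured by subset, with circles for replicate 1 and triangles for replicate 3. Open symbols below 0 mark libraries with no peak, which were 2 libraries at Cd4 and all 6 at Cd8a.

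Coverage was also taken over the whole gene window, the gene body with 20 kb on either side. Peaks covered on average 20.2% of the Zbtb7b window, 17.0% for Cd247, 14.8% for Cd4, 14.0% for Cd5, 13.9% for Cd3e, 12.1% for Cd3d, 10.9% for Cd3g and 10.4% for Cd6. The median over all protein-coding genes was 4.85%. Cd8b1, at 5.1%, was near that median, and Cd8a, at 0.236%, ranked 4.87% of the way up the list of genes. Cd4, whose promoter was weak, ranked at 93.2%. Its window also takes in Gpr162 and parts of P3h3 and Lag3, and peaks over these neighbours count in its share.

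The 3 control elements of Cd4 (chr6:124864692-124888221, minus strand) were then taken singly. The promoter had weak or no peaks. The percentile was 29.2 in Th9 replicate 3, 44.4 and 55.9 in the Th2 libraries and 19.2 in Th17 replicate 3, and no peak was called in Th9 replicate 1 and Th17 replicate 1. Both Th2 values were the highest, and Th9 and Th17 overlapped. With uncalled libraries set to 0 the mean was 9.62 in Th17 and 32.4 in the other 4, a difference of -22.8 percentile points (exact permutation p = 0.333), or -13.2 without Th17 replicate 1. With a fold enrichment of at least 2.2, above the limit of every list, the promoter peak was left in 1 library only.

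The upstream enhancer stretch, 11 to 15 kb upstream of the start, was strong in Th9 and Th2 cells and lower in Th17 cells. One region at chr6:124900379-124902349 was called there in all 6 libraries. Its percentile was 90.2 and 85.9 for Th9, 91.0 and 84.5 for Th2 and 68.9 and 62.2 for Th17. The fold enrichment was 5.54, 5.02, 5.30 and 4.82 in the same 4 libraries and 2.72 and 2.47 in Th17. Both Th17 libraries were below all others, with a mean difference of -22.3 percentile points, at the smallest p the design allows (exact permutation p = 0.0667). The standard deviation within subsets was 4.18. The peaks covered 1373 to 1944 bp of the stretch in Th9 and Th2 and 844 and 1604 bp in Th17.

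The first intron, which holds the silencer, had the opposite order. Its main region lay at chr6:124884906-124886689, with its midpoint 2.42 kb downstream of the start. The percentile was 70.9 and 72.5 for Th9, 77.7 and 76.0 for Th2 and 90.3 and 82.7 for Th17. Both Th17 libraries were above all others and both Th9 libraries below all others. The Th17 mean was 12.3 points above that of the other 4 libraries (exact permutation p = 0.0667), with a standard deviation within subsets of 3.26. Th17 replicate 1, which was highest, also had the narrowest peak there (885 bp, against 1377 to 1744 bp in Th9 and Th2 and 1493 bp in Th17 replicate 3), and the part of width in its percentile was not tested. Ranking peaks by −log10 p in place of fold, a choice made after the data were seen, gave differences of 10.9 points for the intron and -21.8 for the enhancer stretch. Another peak wholly inside the intron was called in Th2 replicate 1 alone, at a percentile of 13.3.

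**Figure D2:**
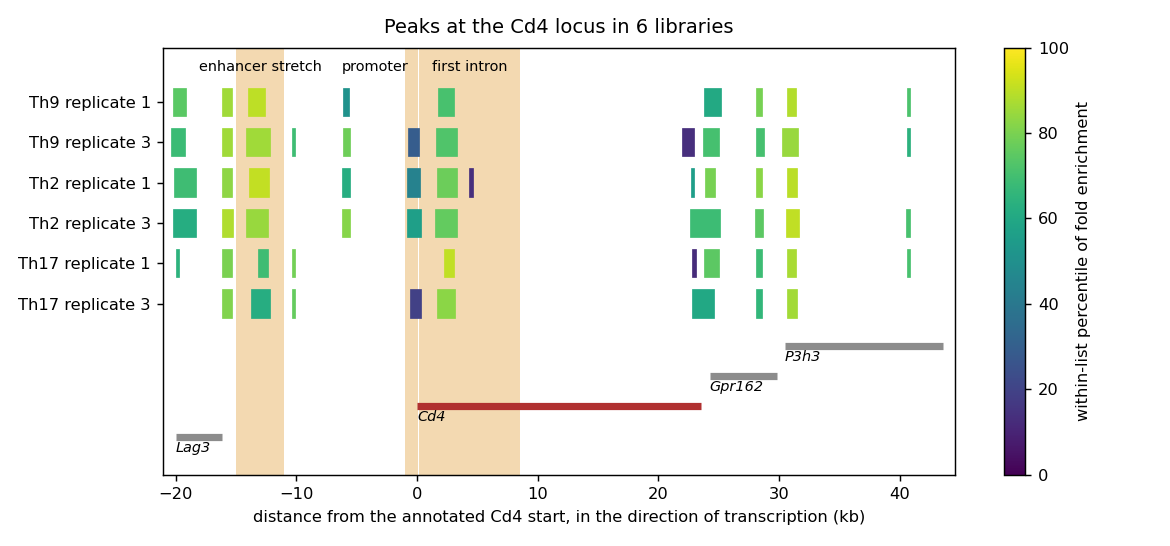
Peaks at the Cd4 locus in the 6 libraries by distance from the Cd4 start in kb (horizontal axis), coloured by within-list percentile, with the promoter, first intron and enhancer stretch shaded and genes drawn below. The enhancer stretch is darker in the 2 Th17 libraries (68.9 and 62.2), which lack the peak near -5.89 kb seen in the other 4.

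The sequence under the first-intron region is shown because Th17 was highest there, and that of an upstream region (-5.89 kb, described next) because it was called in Th9 and Th2 only. The letters are the plus strand of GRCm38.p6, the assembly that mm10 displays, so Cd4 reads from right to left. Capitals mark the core RUNX word ACCACA, or TGTGGT on the other strand, and the core ETS word AGGAAG, or CTTCCT. The first sequence, chr6:124885991-124886290, was chosen as the 300 bases of the intron with the most RUNX words, and the others are the middle of the stretch that the peaks shared, at chr6:124885420-124885719 and chr6:124893941-124894240.
Cd4 first intron, RUNX words: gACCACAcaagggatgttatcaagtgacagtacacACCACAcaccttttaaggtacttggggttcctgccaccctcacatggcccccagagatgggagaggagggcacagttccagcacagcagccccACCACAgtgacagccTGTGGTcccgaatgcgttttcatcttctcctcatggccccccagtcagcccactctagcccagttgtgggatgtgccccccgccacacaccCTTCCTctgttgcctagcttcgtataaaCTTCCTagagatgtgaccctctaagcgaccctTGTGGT
Cd4 first intron, shared by 6 libraries: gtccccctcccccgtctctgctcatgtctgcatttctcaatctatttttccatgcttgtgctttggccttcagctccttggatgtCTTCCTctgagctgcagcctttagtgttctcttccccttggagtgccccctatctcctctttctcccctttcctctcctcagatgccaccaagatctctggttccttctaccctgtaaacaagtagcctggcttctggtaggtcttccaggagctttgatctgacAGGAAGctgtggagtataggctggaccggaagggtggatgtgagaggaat
Cd4 upstream region of Th9 and Th2: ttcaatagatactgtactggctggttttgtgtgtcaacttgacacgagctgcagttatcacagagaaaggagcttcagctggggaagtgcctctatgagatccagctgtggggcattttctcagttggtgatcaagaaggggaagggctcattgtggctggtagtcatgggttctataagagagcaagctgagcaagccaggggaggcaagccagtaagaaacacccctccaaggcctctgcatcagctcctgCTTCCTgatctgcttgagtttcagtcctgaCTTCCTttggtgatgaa

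The first Cd4 intron, 8386 bp long, held 8 RUNX words, and 6 of them lay within the accessible region, in a span of 491 bp. The peaks of 5 libraries covered all 6. The peak of Th17 replicate 1 ended inside the cluster and covered 2. The first sequence holds 5 RUNX words and 2 ETS words, and the printed middle of the part shared by all 6 libraries holds no RUNX word and 2 ETS words. The upstream region of Th9 and Th2 also holds no RUNX word and 2 ETS words. In windows of 300 bp at the centres of all 50486 regions called in 6 libraries, 21% held a RUNX word and 32.9% an ETS word. The other words searched on both strands, none of which contains another, were AGATAA for GATA factors, CAGCTG for E-box factors, GGGAGGG for MAZ, AACTG for MYB, TGANTCA for AP-1 and TTCNNNGAA for STAT, found in 10.1%, 16.5%, 13.5%, 42.9%, 10.6% and 8.35% of those windows. Of these the intron sequence with the RUNX words holds 2 MYB words, the shared intron sequence 1 MAZ word, and the upstream region 2 E-box and 2 MYB words. A match describes the letters and does not show a bound site.

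Some of the other regions around Cd4 also set Th17 apart, and some did not. At -5.89 kb (chr6:124893778-124894446) the percentile was 50.6 and 77.8 in Th9 and 62.2 and 81.8 in Th2, and no peak was called in Th17. This was one of the 3 regions shared by Th9 and Th2 only. A narrow region at -10.2 kb (chr6:124898307-124898587) was called in both Th17 libraries (78.8 and 76.4) and in Th9 replicate 3 (68.8). At -15.7 kb (chr6:124903457-124904356) all 6 libraries had a peak, with 85.9, 85.9, 83.0 and 87.9 for Th9 and Th2 against 79.7 and 80.9 for Th17. Further upstream, over an exon of Lag3, which encodes an inhibitory receptor related to CD4, the peaks of Th9 and Th2 covered 1009 to 1907 bp, that of Th17 replicate 1 covered 247 bp and Th17 replicate 3 had none. The percentile there was 74.5 and 68.3 for Th9, 68.9 and 61.95 for Th2 and 64.4 in Th17 replicate 1, which lay within the range of the others. On the other side of Cd4, the region at the start of the neighbour Gpr162 was called in all 6 libraries, with 60.35 to 79.35 for Th9 and Th2 against 74.7 and 59.8 for Th17, so the subsets overlapped. Over an exon of Gpr162 at 28.35 kb from the Cd4 start, Th17 was lower again, with 68.6 and 65.9 against 70.6 to 82.4.

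The Cd3 genes lie together on chromosome 9, with Cd3g (minus strand) and Cd3d (plus strand) starting 1354 bp apart and Cd3e (minus strand) beyond Cd3d. In the stretch between the Cd3g and Cd3d starts the peaks differed in shape between the subsets. In Th9 replicates 1 and 3 and Th2 replicates 1 and 3 a single peak covered all 1354 bp. In Th17 the peaks covered 393 and 321 bp, as 1 peak at each start with a gap between them. The strength did not separate the subsets. The strongest peak had a percentile of 76.6 and 70.9 for Th9, 75.7 and 66.4 for Th2 and 80.0 and 68.2 for Th17, a difference of 1.71 points (exact permutation p = 0.667). At the Cd3d start alone the Th17 peaks were at 57.1 and 67.1.

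The Cd3g end of this stretch is printed from the base next to the Cd3g start, at chr9:44980432-44980731 on the plus strand, because the peaks of all 6 libraries overlapped in its first part, while its last part lies in the gap between the Th17 peaks. It holds no RUNX and no ETS word and 1 GATA word.
Cd3g and Cd3d shared start: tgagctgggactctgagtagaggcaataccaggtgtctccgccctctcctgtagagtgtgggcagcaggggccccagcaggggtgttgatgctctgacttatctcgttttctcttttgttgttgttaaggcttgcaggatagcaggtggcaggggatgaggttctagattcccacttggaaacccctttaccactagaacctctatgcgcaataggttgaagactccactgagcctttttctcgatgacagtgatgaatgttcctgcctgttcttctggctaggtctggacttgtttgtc

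**Figure D3:**
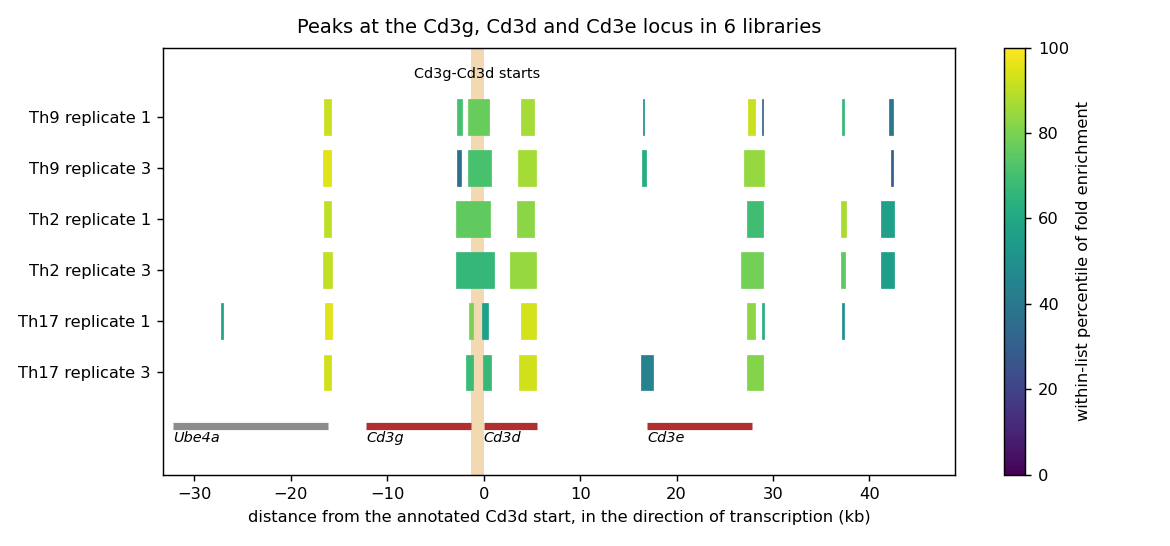
Peaks at the Cd3g, Cd3d and Cd3e locus in the 6 libraries by distance from the Cd3d start in kb (horizontal axis), coloured by within-list percentile, with the stretch between the Cd3g and Cd3d starts shaded. In Th9 and Th2 a single peak spans the 1354 bp, while in Th17 separate peaks cover 393 and 321 bp of it.

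The region over the body and end of Cd3d, which encodes the delta chain (chr9:44984474-44987245), was strongest in Th17. Its percentile was 86.6 and 86.5 for Th9, 82.6 and 84.3 for Th2 and 93.1 and 92.7 for Th17. The Cd3e promoter region (chr9:45008421-45010884) had 92.0 and 84.0 for Th9, 69.3 and 78.6 for Th2 and 82.9 and 81.6 for Th17, so that Th9 was above and Th2 below the rest. A region at -14.0 kb from the Cd3e start (chr9:45022940-45024383) was called in Th9 (39.5 and 29.8) and in Th2 (56.3 and 55.7) and not in Th17. These were weak peaks, and with a −log10 q of at least 5 no region remained that was called in both Th9 and both Th2 libraries alone.

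Cd247, the zeta chain gene (chr1:165788681-165877277, plus strand), spans 88597 bp and held the most regions. In an intronic region at chr1:165843101-165846298 the percentile was 96.9 and 97.8 for Th9, 96.7 and 94.0 for Th2 and 87.5 and 86.6 for Th17. The fold enrichment there was 9.45, 13.5, 7.79 and 7.77 in the 4 Th9 and Th2 libraries and 4.53 and 4.28 in Th17. Another intronic region, at chr1:165863224-165864271, ran the other way, with 80.1 and 85.7 for Th9, 93.0 and 91.3 for Th2 and 97.0 and 95.7 for Th17. The gene thus held regions of both orders, and at its promoter region (chr1:165787272-165791741) Th2, at 88.8 and 88.9, was above the other 4 libraries (80.1 to 85.7).

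Cd5 and Cd6, neighbours on chromosome 19 that encode inhibitory scavenger-type receptors, had promoter peaks in all 6 libraries. At the Cd5 promoter region (chr19:10737774-10742922) the percentile was 73.2 and 66.0 for Th9, 79.0 and 66.7 for Th2 and 78.1 and 69.6 for Th17, so the subsets overlapped. A region near the end of Cd5 (chr19:10717563-10717891) was called in Th9 and Th2 only, at percentiles of 34.7 to 59.6. At the Cd6 promoter region (chr19:10827456-10830597) the percentile was 65.7 and 38.5 for Th9, 63.5 and 70.0 for Th2 and 71.1 and 76.4 for Th17. The Th17 peaks there were also the narrowest, covering 327 and 527 bp against 1725 to 3068 bp in the other 4. A region at -1.58 kb from the Cd6 start had the opposite order, with 63.7 and 55.9 in Th17 and 64.8 to 78.9 in the rest. Beyond the end of Cd6, at 42.45 kb from its start, a region set the other subsets apart, with Th9 above (87.7 and 85.1) and Th2 below (68.6 and 69.7) the Th17 values (78.0 and 76.0).

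Zbtb7b (chr3:89377644-89394776, minus strand) lay under the widest region, 11766 bp at chr3:89385159-89396924, which covered its promoters. The percentile of its strongest peak was 86.0 and 86.5 for Th9, 82.0 and 80.5 for Th2 and 85.7 and 78.3 for Th17. In Th9 replicate 3 a single peak spanned the whole region. In the other 5 libraries a separate narrow peak of 396 to 514 bp lay just upstream of the gene, at percentiles of 50.9 in Th9 replicate 1, 54.1 and 65.3 in Th2, and 68.9 and 53.5 in Th17, so that Th2 and Th17 overlapped.

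Some neighbouring genes also had promoter peaks inside the windows, whereas no region touched the promoters of Lenep, Dcst1 and Dcst2 near Zbtb7b. The percentile was 94.2 to 96.0 at Flad1 near Zbtb7b, 90.1 to 95.2 at Ube4a beside Cd3g and 84.6 to 90.4 at P3h3 near Cd4. At Slc15a3, upstream of Cd6, it was 80.8 and 77.9 for Th9, 3.89 and 48.1 for Th2 and 60.5 and 53.6 for Th17, so that Th9 was highest and Th2 lowest. A region inside Creg1, upstream of Cd247, touched the promoter of an annotated Creg1 start. There 5 libraries had a weak peak (15.3 to 53.8) and Th9 replicate 1 had none. Only the peak of Th2 replicate 3 reached into the Cd247 window. The outermost Creg1 start (chr1:165763746) lay outside that window, and its promoter was not examined.

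The Cd8 pair was the least accessible. Around Cd8a (chr6:71373427-71379173, plus strand), whose product is the alpha chain of CD8, a single region was called, at 8.48 kb downstream of the start. It was called in both Th17 libraries (63.8 and 57.0) and in Th9 replicate 3 (3.1). The promoter had no peak in any library. Cd8b1 (chr6:71322788-71337494, plus strand), which encodes the beta chain, did have a promoter peak in all 6, at 51.0 and 51.3 for Th9, 68.8 and 66.4 for Th2 and 74.9 and 76.2 for Th17. The Th9 values were the lowest and the Th17 values the highest. That region also touched the promoter window of the neighbouring muscle gene Smyd1, and the lists cannot say to which start it belongs.

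The 35932 bp from the end of Cd8b1 to the start of Cd8a, which hold the known Cd8 enhancers, contained 1 region, at chr6:71341247-71341918. Its percentile was 77.9 and 55.4 in Th9, 78.7 and 72.5 in Th2, and 50.2 in Th17 replicate 3, and no peak was called in Th17 replicate 1. With the uncalled library at 0, the Th17 mean was 25.1 and that of the other 4 was 71.1 (exact permutation p = 0.0667). The standard deviation within subsets was 22.6, with a peak in 1 Th17 library and none in the other. The middle of this region (chr6:71341401-71341700) and the 250 bases before the Cd8a start in RefSeq (chr6:71373177-71373426, GRCm38.p6), where no library had a peak, are printed on the plus strand with the same marks. The former holds 1 ETS, 1 MYB and 1 AP-1 word and no RUNX word, and the latter 1 MYB word and neither of the marked words. In the 250 bases before 27025 gene starts, 29.2% held an ETS word and 14.2% a RUNX word.
Cd8b1 downstream region: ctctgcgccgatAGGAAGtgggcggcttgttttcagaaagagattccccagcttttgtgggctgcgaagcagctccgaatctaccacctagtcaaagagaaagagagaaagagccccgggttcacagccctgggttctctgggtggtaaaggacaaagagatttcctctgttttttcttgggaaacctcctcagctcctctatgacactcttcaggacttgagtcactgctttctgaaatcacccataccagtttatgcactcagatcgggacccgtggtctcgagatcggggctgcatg
Cd8a promoter: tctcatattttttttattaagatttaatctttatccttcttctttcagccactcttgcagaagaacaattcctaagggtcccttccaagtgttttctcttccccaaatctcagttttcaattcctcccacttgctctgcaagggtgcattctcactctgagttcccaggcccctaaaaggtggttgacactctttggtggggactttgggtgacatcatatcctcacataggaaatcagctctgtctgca

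**Figure D4:**
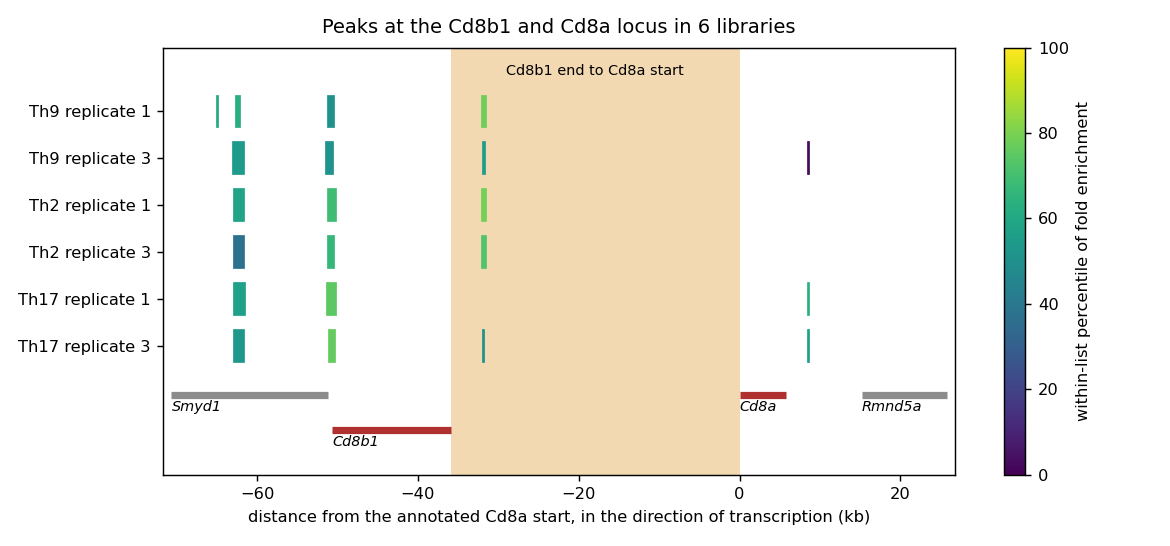
Peaks at the Cd8b1 and Cd8a locus in the 6 libraries by distance from the Cd8a start in kb (horizontal axis), coloured by within-list percentile, with the stretch from the Cd8b1 end to the Cd8a start shaded. The 35932 bp hold 1 region, called in 5 libraries, and the Cd8a start has no peak.

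Over the 44 regions called in all 6 libraries, strength separated 1 subset from the other 4 libraries in 11.4% to 18.2% by subset and direction. Both Th17 percentiles were above all others in 8 regions (18.2%, background 7.71%) and below in 6 (13.6%, background 11.4%). For Th9 these were 6 above (13.6%, background 10.2%) and 7 below (15.9%, background 9.52%), and for Th2 5 above (11.4%, background 12.5%) and 6 below (13.6%, background 8.42%). The Th17 share above the others was the farthest from its background, but with a fold enrichment of at least 2.2 it fell to 9.38%, and the share with Th17 below was 25%. No background was taken at that fold, so these shares cannot be set against the backgrounds given here. The regions with Th17 above were spread over the Cd247, Cd3, Cd4, Cd5, Cd6 and Cd8 loci, and those with Th17 below over Cd247, Cd4 and Cd6, so that Cd247, Cd4 and Cd6 held both. Regions of a locus are not independent and no test was made over them.

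**Figure D5:**
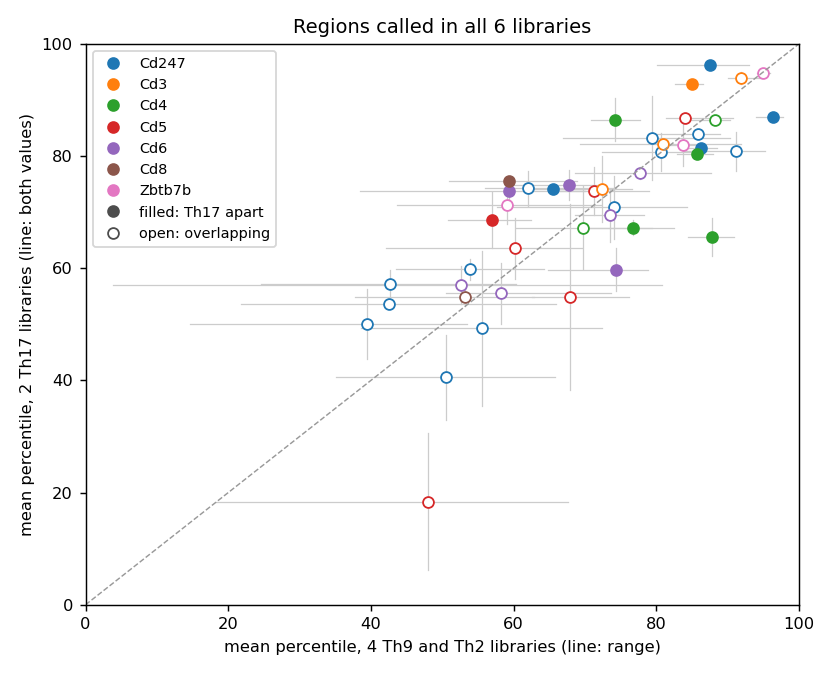
Mean within-list percentile of the 2 Th17 libraries (vertical axis) against that of the 4 Th9 and Th2 libraries (horizontal axis) for the 44 regions called in all 6, coloured by locus, with grey lines for the range and a dashed line of equality. Filled points are the 8 regions above and the 6 below in which both Th17 libraries lay outside the range of the others.

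Width gave another view, since a broad peak can extend or split while its percentile stays. Both Th2 libraries covered more base pairs than all others in 9 of the 44 regions (20.5%, background 23.8%) and fewer in none (background 2.34%). Both Th17 libraries covered fewer in 8 (18.2%, background 14.5%) and more in none (background 6.88%). Both Th9 libraries covered fewer in 5 (11.4%, background 19.4%) and more in none (background 4.09%).

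The other genes of T cell receptor signalling were called throughout. All 22 of 22 listed promoters had a peak in all 6 libraries, where 58.7% of all genes did, among them Lck, the kinase that CD4 and CD8 carry, at percentiles of 72.1 to 83.3. Both Th17 libraries were above the other 4 at 2 of the 22 promoters (background 5.55% of genes with a promoter peak in all 6) and below at 1 (9.01%). Th9 was above at 4 (17.6%) and below at 3 (7.37%), Th2 above at 3 (8.91%) and below at 3 (17.9%), and at 10 promoters no subset stood apart. Both Th17 libraries were highest at Zap70, the kinase that docks on the CD3 and zeta chains (87.8 and 86.2 against 74.7 to 82.3), and at Lat, the adaptor it phosphorylates (96.6 and 94.8 against 87.9 to 91.9). At Ptprc, the phosphatase CD45, Th2 was highest (89.1 and 88.6) and Th17 lowest (67.8 and 75.7), with Th9 between (78.9 and 78.4).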

How the data were processed

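ATAC-seq peak lists of 6 libraries, 2 each from Th9, Th2 and Th17 cells, were used as deposited. Per the labels and the methods, the authors trimmed read pairs with Trim Galore 0.4.3, aligned them to mm10 with bowtie2, removed duplicates with Picard, and called broad peaks for each library on its own with MACS2 2.1.0 against a genome-wide background, with no input. The low-quality and mitochondrial reads were also removed. The deposited lists give the fold enrichment, a linear ratio, and the −log10 p and −log10 q of each peak. The cutoff used and any shift for the Tn5 offset were not given in the sources used here. No peak lay past a chromosome end of GRCm38.p6.

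Overlapping or touching peaks were merged, and a region counted as called in a library with a peak overlapping it by at least 1 bp. The strongest peak gave the region's percentile. Depth was recovered from flat peaks, whose fold and p fix the fragment count and the background coverage, and it limits which weak peaks can be called. Samples were grouped by their titles. Th17 was compared with the other 4 libraries by two-sided exact permutation tests for single stretches, and counts over regions were given without a test beside those of regions within 20 kb of protein-coding genes. Genes named were the 10 members, genes whose promoters lay in their windows, and listed signalling and marker genes. Members, lists and words were chosen with earlier results of these data known. Python 3.11.15, numpy 2.4.6, pandas 2.3.3, scipy 1.17.1 and matplotlib 3.10.9 were used, and scripts were tested on simulated data. A marker list and a sequence are not reported here. RefSeq promoter sequence was used for Cd8a, and entries for Cd4 and Cd8b1 were not used.

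The alternatives tried were a −log10 q minimum of 5, a fold minimum of 4 or 2.2, lists of equal length, the top 20000 peaks by fold, 50% of a region covered, promoters of other genes left out, promoters of 2000 bp on either side, a promoter overlap of 200 bp, each library left out, and a block for the replicate number.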

Additional observations from a re-analysis of the deposited data

How the results depend on the processing

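The differences at the Cd4 enhancer stretch and first intron kept their direction under every alternative run, from -50.5 to -19.0 and from 8.46 to 37.6 percentile points, and that at the Cd4 promoter from -33.6 to -2.9. The first intron missed the smallest p of 0.0667 with a −log10 q of at least 5 (exact permutation p = 0.2), a fold of at least 4 (p = 0.333) and a fold of at least 2.2 (p = 0.133). The Cd4 promoter could not be compared with a fold of at least 4 or the top 20000 peaks, which left no peak there. Leaving out single libraries gave -33.6 to -13.2 points for the promoter, 8.46 to 16.1 for the intron and -25.7 to -19.0 for the enhancer stretch. With the replicate block the 3 differences were the same in size by construction (-22.8, 12.3 and -22.3). The sign test of 2 pairs gave p = 0.5 (exact), the smallest p that 2 pairs allow. Same-numbered libraries correlated in their deviations at 0.168, 0.0313 and -0.00984, so the numbers were not taken to pair the libraries. Depth did follow the numbers, since in each subset replicate 1 had more peaks and a lower background coverage than replicate 3. The coverage was 5.65 against 12.1 for Th9, 11.2 against 15.2 for Th2 and 14.4 against 17.7 for Th17.

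The share of regions called in all 6 libraries was 33.9% with a −log10 q of at least 5, 19.0% with a fold of at least 4, 21.1% with the top 20000 peaks and 26.6% with 50% of a region covered, where near genes in general it was 36.6%, 40.3%, 43.9% and 13.6%. The excess over the background was thus seen with weak peaks included and reversed without them. For the shares that follow no background was taken at the same setting. The regions of Th9 and Th2 only were 0% with a −log10 q of at least 5 and 14.3% (3 of 21) with a fold of at least 4. Regions of Th9 alone were 9.52% with a fold of at least 4 and 5.26% with the top 20000 peaks, those of Th17 alone 5.26% with the top 20000 peaks, and those of Th2 alone 0% with a fold of at least 4 or 2.2, lists of equal length or the top 20000 peaks.

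For regions of all 6 libraries, no background was taken at the settings that follow, so a shift may hold for all regions alike. With a −log10 q of at least 5, which left 20 regions, Th2 was below in 5% and above in 40%. With a fold of at least 4, which left 4 regions, Th9 and Th2 were below in 0%, Th2 above in 25%, Th17 below in 50% and above in 0%. With a fold of at least 2.2, which left 32 regions, Th9 was below in 3.12% and above in 21.9%, Th2 above in 3.12%, and Th17 above in 9.38% and below in 25%. With the top 20000 peaks, which also left 4 regions, Th9 below, Th2 above and Th17 above were 0%. Leaving out single libraries gave 15.6% to 32.6% for Th9 below (highest without Th9 replicate 1), 10.9% to 31.1% for Th2 above (highest without Th2 replicate 3) and 13% to 33.3% for Th17 below (highest without Th17 replicate 1). With 1 library left in a subset the condition is easier to meet. The replicate block gave 18.2% for Th17 on either side. Of the 8 genes with a promoter peak in all 6 libraries, 4 were left with a −log10 q of at least 5, 7 with a fold of at least 2.2, 6 with at least 200 bp of the window covered, and 0 with a fold of at least 4 or the top 20000 peaks.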
